A study of Mus musculus with 11 samples.

Results

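The chemokine ligand family was examined in orthotopic E0771 tumors with and without depletion of pyruvate carboxylase (PC), the mitochondrial enzyme that turns pyruvate into oxaloacetate. E0771 cells are mammary carcinoma cells derived from a C57BL/6 mouse. The family was taken by symbol, as every gene named Ccl, Cxcl, Cx3cl or Xcl with a number, which gave 39 of the 22206 features of the array, termed probe sets, and 38 genes of 19505. Where a gene had several probe sets, the one with the highest mean was used. There were 11 tumors in 3 groups. Tumor cells carried the shRNA shPC25 against Pcx (n = 3), the shRNA shPC28 against Pcx (n = 4) or a scrambled shRNA (scram, n = 4). Each was a lentiviral pLKO.1 construct under puromycin selection. For every tumor 500000 cells were placed in mammary fat pad number 4 of an untreated C57BL6J mouse. The study used young adult female mice and fed the diet D12450J to the C57BL6J mice of its E0771 experiments. Every sample title carries the tag LFD. Each hairpin was introduced into the cells once, as far as the sources used here say, so tumors of a group repeat the mouse and not the transduction. RNA came from whole tumors, so fewer cells of a type and less RNA per cell cannot be told apart.

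Chemokines are small secreted proteins that steer leukocytes along concentration gradients by binding G protein-coupled receptors. Neutrophils follow Cxcr2 ligands, monocytes follow Ccr2 ligands, activated T cells follow the interferon-induced Cxcr3 ligands, and the lymphoid chemokines place T cells and B cells within lymph nodes. In tumors they are made by cancer cells, macrophages, fibroblasts and vessels alike. The comparison asked whether depletion of PC in the cancer cells altered this set of signals, in a study concerned with tumor immunity.

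Values are log2 signals, so a difference of 1 is a doubling of signal, and levels of different genes are not compared because probe sets differ in brightness. The correlation of any pair of arrays lay at r = 0.987 to 0.994. A gene was taken as above background where its mean lay over 4.30, the 95th percentile of the means of 1091 olfactory receptor probe sets, and 28 of the 38 chemokines did. Of 7 listed mammary epithelial and tumor cell markers 6 were above that limit, and Krt8 lay between 13.56 and 14.61 in all tumors. The other markers were less even, and 5 of the 7 were lower in the shPC groups. Krt14 lay between 3.92 and 8.76 in shPC tumors and between 8.16 and 9.21 in scram tumors. It differed by -2.10 (limma, adjusted p = 0.559). The mean of the 7 per tumor was 5.10 to 6.29 in shPC25, 5.08 to 7.12 in shPC28 and 6.21 to 6.81 in scram tumors. Pcx itself was dim, at 3.12 to 3.42 in shPC25 tumors, 2.32 to 3.76 in shPC28 tumors and 3.41 to 4.48 in scram tumors, with a difference of -0.80 for both shPC groups minus scram (limma, adjusted p = 0.388). The arrays therefore give the depletion no firm check.

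No chemokine passed an adjusted p below 0.05 by limma in any comparison. For both shPC groups minus scram 0 of 38 passed, where 3 of all probe sets did (0.0135%). In the other comparisons 0 of 38 passed, as did 0% of all probe sets for shPC25 minus scram, shPC28 minus scram and shPC28 minus shPC25. The smallest adjusted p of a chemokine was 0.163, 0.182, 0.44 and 0.993 in the same order. At an unadjusted p below 0.05 in both shPC groups minus scram, 7 chemokines were lower (18.4% of the family, against 4.76% of all probe sets) and 0 were higher (against 4.34%). These were Cxcl5, Cxcl2, Cxcl3, Ccl8, Cxcl16, Cxcl14 and Ccl11. In shPC25 minus scram 8 were lower (21.1%, against 4.16%) and 2 higher (5.26%, against 4.29%). In shPC28 minus scram 5 were lower (13.2%, against 3.72%) and 0 higher (against 3.69%). The methods' t-test on the same values gave 5, 6 and 5 chemokines at that limit, in either direction, in these comparisons and 0 after Benjamini-Hochberg adjustment. Its first comparison pooled the 7 shPC tumors, whereas the limma contrast gave both hairpins equal weight. No chemokine had all 7 shPC tumors below all 4 scram tumors or all 7 above them, against 0.703% and 0.842% of all probe sets.

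The class medians had either sign. For both shPC groups minus scram the median difference was -0.28 over the 38 chemokines and 0.02 over all probe sets, with 23 chemokines lower (60.5%) beside 46.4% of all probe sets. Among the 28 above background 21 were lower, with a median of -0.60, while among the 10 others 2 were lower, with a median of 0.16. By class the medians were -1.32 for the neutrophil attractants, -0.63 for the monocyte attractants, -0.58 for macrophage inflammatory protein type CC ligands, 0.04 for the interferon-induced chemokines and 1.24 for the lymphoid chemokines. The last value counts 3 near-identical Ccl21 genes and includes a tumor that stands apart, shPC28 replicate 4, described with that class. With Ccl21 counted once, a choice made after seeing the data, the lymphoid median was 0.14. Leaving out 1 tumor moved the count of lower chemokines between 20 (without scram replicate 3) and 27 (without shPC28 replicate 4). The count at an unadjusted p below 0.05 moved between 5 (without scram replicate 1 or shPC25 replicate 1) and 10 (without scram replicate 4 or shPC28 replicate 4). Both shPC comparisons share the scram tumors, so a like direction in shPC25 and shPC28 is not independent evidence.

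**Figure D1:**
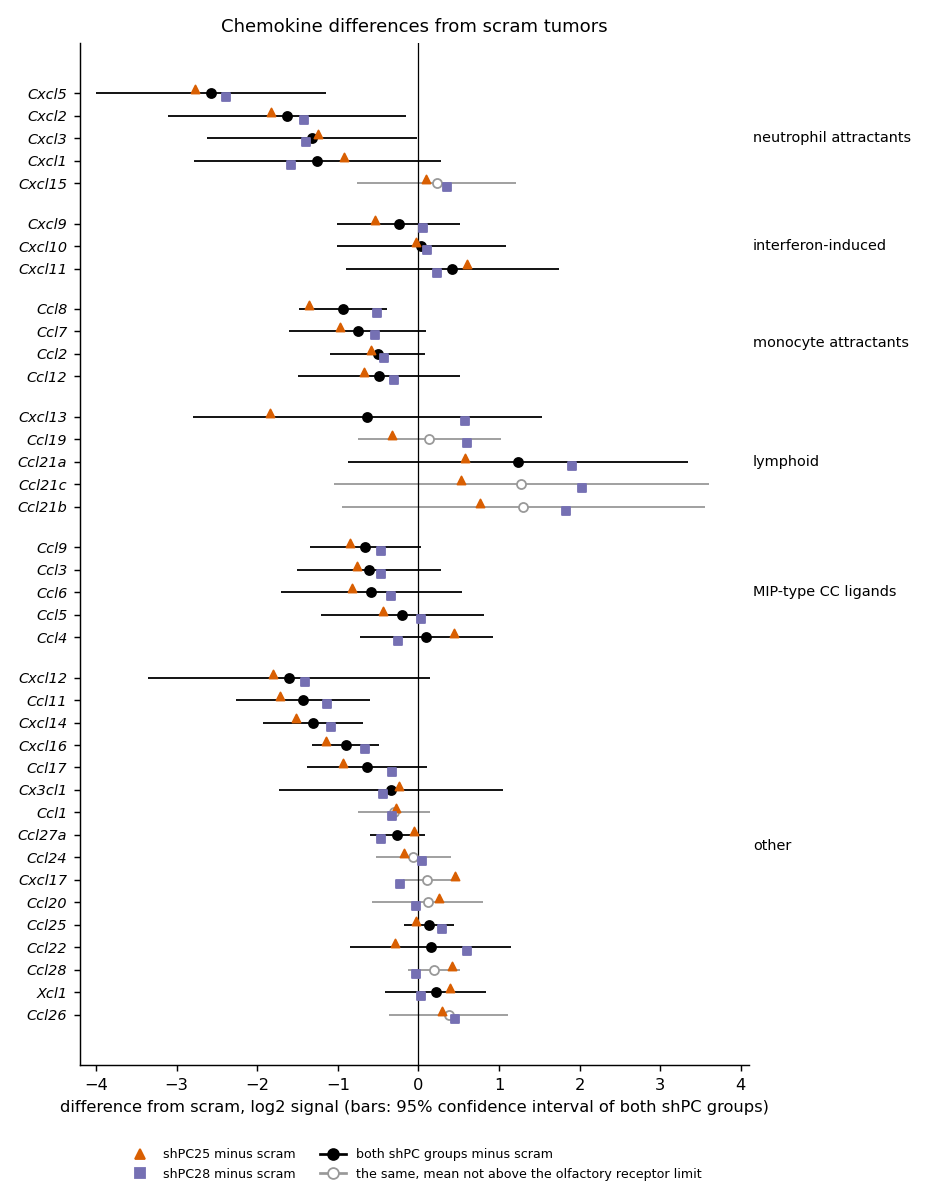
Difference from scram tumors on the log2 scale (horizontal axis) for each of the 38 chemokines, by class. Black points with bars are both shPC groups minus scram with the 95% confidence interval from limma, triangles are shPC25 minus scram, squares are shPC28 minus scram, and open grey points mark genes whose mean was not above the olfactory receptor limit. Cxcl5 has the lowest value (-2.58), 4 of 5 neutrophil attractants lie left of zero, and the 3 interferon-induced chemokines lie around it.

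Neutrophil attractants were the class with the lowest median. Cxcl5, Cxcl2, Cxcl3 and Cxcl1 were lower in the shPC groups by 2.39 to 5.96 times in mean signal, but neighboring tumors overlapped and no member passed the adjusted threshold. Cxcl5, a Cxcr2 ligand made mainly by epithelial and stromal cells, was at 3.96, 4.08 and 3.09 in shPC25 replicates 1 to 3, at 5.06, 3.36, 3.73 and 4.24 in shPC28 replicates 1 to 4, and at 9.0, 5.66, 6.41 and 4.85 in scram replicates 1 to 4. Only shPC28 replicate 1 reached into the scram range, and 6 of 7 shPC tumors lay below every scram tumor. The difference for both shPC groups minus scram was -2.58 (95% confidence interval -4.00 to -1.15; limma, adjusted p = 0.227). It was -2.77 for shPC25 and -2.38 for shPC28, and 6 of 7 shPC tumors lay under the background limit, where signal understates a ratio. The scram tumors themselves ranged widely, and without scram replicate 1 the difference was -1.74.

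Cxcl2, an inflammatory Cxcr2 ligand of macrophages and neutrophils, was at 9.56, 12.13 and 10.71 in shPC25 tumors, 12.13, 9.29, 11.09 and 12.32 in shPC28 tumors, and 13.54, 11.99, 13.58 and 11.41 in scram tumors. Scram replicates 1 and 3 were above every shPC tumor, while scram replicates 2 and 4 lay among them. Its difference was -1.63 (-3.10 to -0.15; limma, adjusted p = 0.514), with 7 of 7 shPC tumors below the scram mean. For Cxcl3, a close relative with the same receptor, the values were 6.47, 9.34 and 7.64 in shPC25 tumors, 8.30, 6.55, 7.56 and 8.25 in shPC28 tumors, and 8.57, 9.56, 10.34 and 7.78 in scram tumors. The groups overlapped through shPC25 replicate 2 and scram replicate 4. Its difference was -1.32 (-2.63 to -0.01; limma, adjusted p = 0.543).

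Cxcl1, the main Cxcr2 ligand induced in stroma and cancer cells by inflammatory cytokines, was at 8.20, 12.13 and 8.91 in shPC25 tumors, 8.92, 8.79, 8.64 and 9.99 in shPC28 tumors, and 10.42, 9.77, 12.31 and 10.18 in scram tumors. Here shPC25 replicate 2 stood with the highest scram tumor, and 5 of 7 shPC tumors lay below every scram tumor. The difference was -1.25 (-2.78 to 0.28; limma, adjusted p = 0.65) for both groups, with -0.92 for shPC25 and -1.58 for shPC28. It was -0.71 without scram replicate 3 and -1.85 without shPC25 replicate 2. Cxcl15, known in mice as a lung epithelial chemokine, was below background and differed by 0.23 (-0.76 to 1.21).

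The promoters of Cxcl1, Cxcl2 and Cxcl3 are shown because these neighbors carry the same NF-kB-type element close to the start, and Cxcl10 is shown as the only other chemokine window with that element. Windows of 300 bases, 250 before and 50 after the start, were given by RefSeq (GRCm38.p6) for 26 of the 38 genes. Cxcl5 had no such window. The motif GGAATTTCC, searched on both strands (reverse complement GGAAATTCC), was in 104 of 32851 windows (0.317%) and in those of 4 chemokines. The stretches below run 5′ to 3′ on the strand of the gene, end before the transcript, and have the motif matches in capitals.
Cxcl1, chr5:90891135-90891224, plus strand: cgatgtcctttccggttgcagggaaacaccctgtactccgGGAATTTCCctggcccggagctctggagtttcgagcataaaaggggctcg
Cxcl2, chr5:90903789-90903878, plus strand: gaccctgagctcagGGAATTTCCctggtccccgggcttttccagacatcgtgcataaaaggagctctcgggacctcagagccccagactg
Cxcl3, chr5:90785991-90786080, plus strand: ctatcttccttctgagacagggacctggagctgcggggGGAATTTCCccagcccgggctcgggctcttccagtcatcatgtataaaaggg
Cxcl10, chr5:92348990-92349109, minus strand: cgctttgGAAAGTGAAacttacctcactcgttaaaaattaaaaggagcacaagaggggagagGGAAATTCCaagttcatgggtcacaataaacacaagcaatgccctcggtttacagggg

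In Cxcl1, Cxcl2 and Cxcl3 the first base of the match was at position -70, -96 and -72 relative to the start, against -158 in Cxcl10. The capitals in the left part of the Cxcl10 stretch are a match of GAAANNGAA, a form of the interferon-stimulated response element, which a search of both strands found in 2812 windows (8.56%) and in 6 of the 26 chemokines. These were Cxcl14 (difference -1.31), Ccl3 (-0.61), Ccl1 (-0.30), Cxcl9 (-0.25), Cxcl10 (0.04) and Ccl19 (0.14). The 2 motifs do not overlap in Cxcl10. These motifs were chosen after the promoters had been seen, and a match describes letters only. The 4 genes with GGAATTTCC differed by -1.25 (Cxcl1), -1.63 (Cxcl2), -1.32 (Cxcl3) and 0.04 (Cxcl10).

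Genes that act with these ligands were set beside them. The receptor Cxcr2, carried mostly by neutrophils, was at 6.20, 8.54 and 6.83 in shPC25 tumors, 7.18, 6.15, 7.13 and 8.06 in shPC28 tumors, and 10.46, 8.08, 9.82 and 7.21 in scram tumors. Scram replicates 1 and 3, the tumors highest in Cxcl2, were again above every shPC tumor. Its difference was -1.73 (limma, adjusted p = 0.442), and that of the second receptor Cxcr1 was -1.26 (adjusted p = 0.581). Csf3, the growth factor of granulocytes, was at 6.55, 11.18 and 9.82 in shPC25 tumors, 8.61, 8.77, 9.10 and 10.75 in shPC28 tumors, and 13.35, 11.79, 12.72 and 9.92 in scram tumors. Every scram tumor other than replicate 4 exceeded every shPC tumor. The difference was -2.70 (limma, adjusted p = 0.353).

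Neutrophil markers were lower as well. Of 13 measured markers 12 were lower and 7 were lower at an unadjusted p below 0.05, against 4.76% of all probe sets. Their mean per tumor ran between 6.73 and 8.42 in shPC25 tumors, between 7.14 and 7.83 in shPC28 tumors and between 7.70 and 9.82 in scram tumors. Ltf and Camp were below background, and Mmp9, a gelatinase of neutrophil granules, and Retnlg differed by -2.79 and -2.69. Scram replicate 4 held the highest Mmp9 value of all tumors (14.16) but the lowest marker mean of the scram tumors. For single tumors the mean of the attractants and the mean of the markers were 8.45 and 8.42 in shPC25 replicate 2. They were 7.47 and 7.70 in scram replicate 4, 9.08 and 9.82 in scram replicate 1, and 9.34 and 9.42 in scram replicate 3. Scram replicate 3 was thus highest in the attractants and scram replicate 1 in the markers. The part of neutrophil content in these values was not tested. Of the 2 platelet chemokines that the symbol rule leaves out, Pf4 differed by -1.30 (limma, adjusted p = 0.371) and Ppbp, another Cxcr2 ligand, by -0.10.

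**Figure D2:**
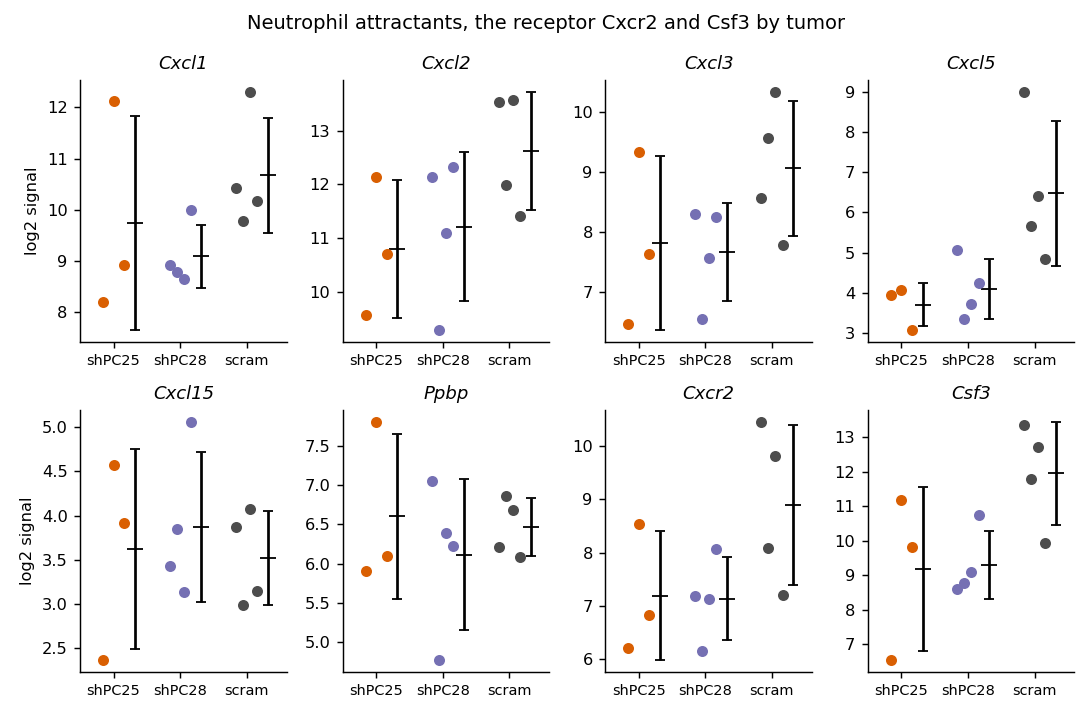
Log2 signal (vertical axis, with its own range in each panel) of the 5 neutrophil attractants, of Ppbp, of the receptor Cxcr2 and of Csf3 in each tumor, by group. Points are tumors and the bar beside them is the mean with its SD. In Cxcl5 the shPC tumors sit between 3.09 and 5.06 and the scram tumors between 4.85 and 9.0, whereas Cxcl15 and Ppbp show no such separation.

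Monocyte attractants were lower in all 4 members, by smaller amounts, and only Ccl8 reached an unadjusted p below 0.05. Ccl8, which in mice attracts T cells and monocytes, was at 10.64, 11.20 and 11.91 in shPC25 tumors, 12.24, 12.11, 11.54 and 12.46 in shPC28 tumors, and 12.69, 12.35, 12.39 and 12.98 in scram tumors. Every shPC tumor except shPC28 replicate 4 lay below every scram tumor. The difference was -0.93 (-1.48 to -0.39; limma, adjusted p = 0.255), with -1.35 for shPC25 and -0.52 for shPC28. Ccl8 was the single chemokine higher in shPC28 than in shPC25 tumors at an unadjusted p below 0.05, by 0.84 (limma, adjusted p = 0.993).

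Ccl7, a Ccr2 ligand that mobilizes monocytes, was at 10.56, 11.96 and 11.78 in shPC25 tumors, 11.34, 11.36, 11.69 and 13.07 in shPC28 tumors, and 12.42, 13.16, 12.03 and 12.00 in scram tumors. It too lay below every scram tumor in 6 of 7 shPC tumors, with shPC28 replicate 4 as the exception, and differed by -0.75 (-1.60 to 0.10; limma, adjusted p = 0.608), or -0.50 without scram replicate 2. Ccl2, the principal Ccr2 ligand in tumors, was at 13.89, 14.64 and 14.46 in shPC25 tumors, 14.23, 14.26, 14.03 and 15.43 in shPC28 tumors, and 15.16, 15.04, 15.03 and 14.43 in scram tumors. The highest tumor of all was shPC28 replicate 4, and the difference was -0.51 (-1.10 to 0.09; limma, adjusted p = 0.627). Ccl12, a mouse relative of Ccl2, was at 11.46, 12.49 and 12.56 in shPC25 tumors, 11.99, 12.35, 11.90 and 13.92 in shPC28 tumors, and 12.41, 13.91, 11.89 and 13.17 in scram tumors. Those ranges overlapped almost wholly, and the difference of -0.49 (-1.49 to 0.51; limma, adjusted p = 0.811) was -0.14 without scram replicate 2.

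The receptor Ccr2 differed by -0.46 (limma, adjusted p = 0.75). Monocyte and macrophage markers were lower in 10 of 11 genes, 8 of them at an unadjusted p below 0.05, against 4.76% of all probe sets. At that limit 9 were lower for shPC25 minus scram and 2 for shPC28 minus scram, against 4.16% and 3.72% of all probe sets. The mean per tumor ran between 11.54 and 11.59 in shPC25 tumors, between 11.87 and 12.38 in shPC28 tumors and between 11.94 and 12.61 in scram tumors. Among these markers Cd14, a coreceptor for bacterial lipopolysaccharide, differed by -1.46, the scavenger receptor Msr1 by -0.69 and the complement gene C1qc by -0.72, while Ly6c2, the marker of inflammatory monocytes, differed by 0.77 in the other direction. The C1qc difference was -1.18 for shPC25 and -0.255 for shPC28. Whether the monocyte attractants followed macrophage content was not tested.

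Interferon-induced chemokines showed no common direction. Cxcl9, induced by interferon gamma, was at 13.41, 11.81 and 12.89 in shPC25 tumors, 13.46, 13.51, 12.68 and 13.55 in shPC28 tumors, and 12.75, 13.17, 14.21 and 12.86 in scram tumors. The groups overlapped except that scram replicate 3 lay above every shPC tumor and shPC25 replicate 2 and shPC28 replicate 3 lay below every scram tumor, and the difference was -0.25 (-1.0 to 0.51; limma, adjusted p = 0.885). Cxcl10, which also answers type I interferon, was at 11.56, 12.79 and 11.98 in shPC25 tumors, 10.98, 12.54, 12.03 and 13.44 in shPC28 tumors, and 12.16, 13.35, 11.78 and 11.28 in scram tumors. Scram and shPC28 tumors spanned nearly the same range, and the difference was 0.04 (-1.01 to 1.08; limma, adjusted p = 0.992). The interval leaves room for a change of signal by about 1 log2 unit either way.

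Cxcl11, the remaining Cxcr3 ligand, was at 6.33, 8.11 and 7.2 in shPC25 tumors, 6.12, 7.43, 6.16 and 7.65 in shPC28 tumors, and 7.0, 8.50, 5.75 and 5.17 in scram tumors. Both the highest and the lowest tumors were scram, and the difference was 0.42 (-0.90 to 1.74; limma, adjusted p = 0.887). RefSeq lists Cxcl11 as a transcribed pseudogene in the C57BL/6J genome, so its signal need not mean a protein. Their receptor Cxcr3 differed by -0.22 (limma, adjusted p = 0.858), Ifng by -0.23 (adjusted p = 0.931) and the interferon response factor Irf1 by -0.21 (adjusted p = 0.82). T and NK cell markers were lower in 3 of 10 genes, 0 of which reached an unadjusted p below 0.05 in either direction, with a mean per tumor of 6.61 to 7.47 in shPC25 tumors, 7.05 to 8.56 in shPC28 tumors and 6.68 to 7.71 in scram tumors.

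**Figure D3:**
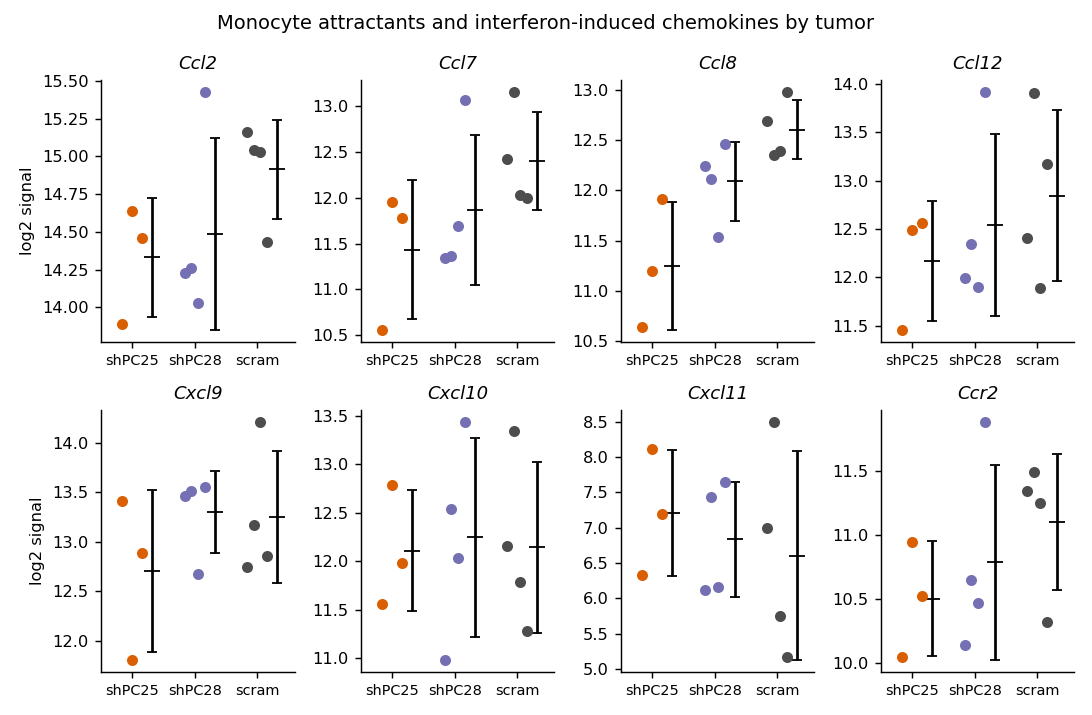
Log2 signal (vertical axis, with its own range in each panel) of the 4 monocyte attractants, the 3 interferon-induced chemokines and the receptor Ccr2 in each tumor, by group. Points are tumors and the bar beside them is the mean with its SD. In Ccl7 and Ccl8 6 of 7 shPC tumors lie below every scram tumor, while for Cxcl9, Cxcl10 and Cxcl11 the ranges of the groups overlap.

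Macrophage inflammatory protein type CC ligands, which myeloid cells and lymphocytes release to draw further leukocytes, were lower in 4 of 5 members. Ccl9 was at 12.47, 13.92 and 13.43 in shPC25 tumors, 14.02, 13.04, 13.45 and 14.13 in shPC28 tumors, and 14.02, 13.53, 14.67 and 14.28 in scram tumors. Of the shPC tumors 3 lay within the scram range, and the difference was -0.66 (-1.34 to 0.03; limma, adjusted p = 0.579). It was -0.85 for shPC25 alone, where the unadjusted p was below 0.05. Ccl3 was at 11.16, 12.11 and 11.98 in shPC25 tumors, 12.60, 11.64, 11.47 and 12.50 in shPC28 tumors, and 12.77, 12.67, 13.48 and 11.14 in scram tumors. Every scram tumor except replicate 4 lay above every shPC tumor, and the difference was -0.61 (-1.50 to 0.27; limma, adjusted p = 0.714), or -1.07 without scram replicate 4 and -0.29 without scram replicate 3.

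Ccl6, a myeloid chemokine of rodents, was at 11.06, 10.95 and 11.05 in shPC25 tumors, 12.73, 10.67, 11.24 and 11.37 in shPC28 tumors, and 12.26, 10.12, 13.18 and 11.82 in scram tumors. The shPC25 tumors were nearly alike whereas scram held both the lowest and the highest tumor, and the difference was -0.58 (-1.70 to 0.54; limma, adjusted p = 0.793), or -1.16 without scram replicate 2 and -0.14 without scram replicate 3. Ccl5, released by T cells, NK cells and macrophages, was at 7.95, 6.87 and 7.33 in shPC25 tumors, 7.29, 8.25, 7.16 and 8.70 in shPC28 tumors, and 7.67, 9.31, 7.62 and 6.67 in scram tumors, a difference of -0.20 (limma, adjusted p = 0.938). Ccl4 was at 8.68, 10.28 and 9.33 in shPC25 tumors, 8.33, 8.21, 9.05 and 9.36 in shPC28 tumors, and 8.74, 9.97, 9.01 and 8.22 in scram tumors, a difference of 0.10 (limma, adjusted p = 0.967). In these last genes the groups could not be separated. Ccr1, a receptor of several members, differed by -0.68 (limma, adjusted p = 0.536).

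Lymphoid chemokines stood out in a single tumor. Ccl21a, which lymph node stroma and lymphatic vessels display to Ccr7-bearing T cells and dendritic cells, was at 5.01, 5.17 and 5.31 in shPC25 tumors, 5.59, 4.93, 4.61 and 10.85 in shPC28 tumors, and 4.78, 4.02, 4.81 and 4.74 in scram tumors. In shPC28 replicate 4 the signal was thus over 5 log2 units above that of any other tumor. Its copies behaved the same way, with 9.75 for Ccl21b and 9.87 for Ccl21c in that tumor, against 2.59 to 4.16 and 2.58 to 4.1 in the other 10. The Ccl21 genes are nearly identical, and the Ccl21c probe set held the same value as the unused Ccl21b probe set in 11 of 11 tumors, so the 3 genes count as 1 measurement. For Ccl21a the difference was 1.24 (-0.87 to 3.35; limma, adjusted p = 0.759), and it was 0.52 without shPC28 replicate 4, with 7 of 7 shPC tumors above the scram mean.

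Cxcl13, which gathers Cxcr5-bearing B cells into follicles, was at 5.28, 5.78 and 6.14 in shPC25 tumors, 6.69, 7.59, 6.89 and 11.45 in shPC28 tumors, and 8.36, 4.78, 9.57 and 7.61 in scram tumors. The shPC25 tumors were low and alike, shPC28 replicate 4 was the highest of all, and the difference for both groups was -0.64 (-2.80 to 1.53; limma, adjusted p = 0.9), which turned to 0.028 without scram replicate 3. Ccl19, the second Ccr7 ligand, was at 5.29 in shPC28 replicate 4 and between 2.55 and 3.41 in the other tumors, which is below background. Without that tumor the class median was 0.48 in place of 1.24. With Ccl21 counted once it was 0.14 over all tumors and -0.15 without that tumor.

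Genes of lymph nodes were high in the same tumor. Glycam1, a mucin of high endothelial venules, was at 11.13 in shPC28 replicate 4 and at most at 3.94 elsewhere. The B cell genes Ms4a1, Pax5 and Cr2 were at 6.69, 5.39 and 4.87 there, and did not exceed 2.75, 3.69 and 3.59 elsewhere, which is below background. Cd79a and Fcer2a, also B cell genes, were highest in that tumor too, but were above background in other tumors as well. Cd79a, part of the B cell receptor, was at 4.62, 4.75 and 5.12 in shPC25 tumors, 4.65, 4.37, 5.29 and 9.14 in shPC28 tumors, and 6.03, 7.04, 5.44 and 7.61 in scram tumors, above background in every tumor. Every shPC tumor but shPC28 replicate 4 lay below every scram tumor in Cd79a. Fcer2a, a receptor of B cells, was at 4.88 in shPC28 replicate 4, against up to 4.78 in scram tumors. The mean of 8 lymph node genes was 5.88 in that tumor, against 3.03 to 3.30 in the other shPC28 tumors, 3.17 to 3.26 in shPC25 tumors and 3.24 to 3.53 in scram tumors. Madcam1 and Chst4 were below background in every tumor. Ccr7 was at 10.38 there and between 8.81 and 9.87 in the rest. The same tumor held the highest Ccl2, Ccl22 and Cxcl10 values of the shPC groups, as well as the highest mean of T and NK cell markers (8.56). How far lymph node tissue accounts for its other chemokines was not tested.

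**Figure D4:**
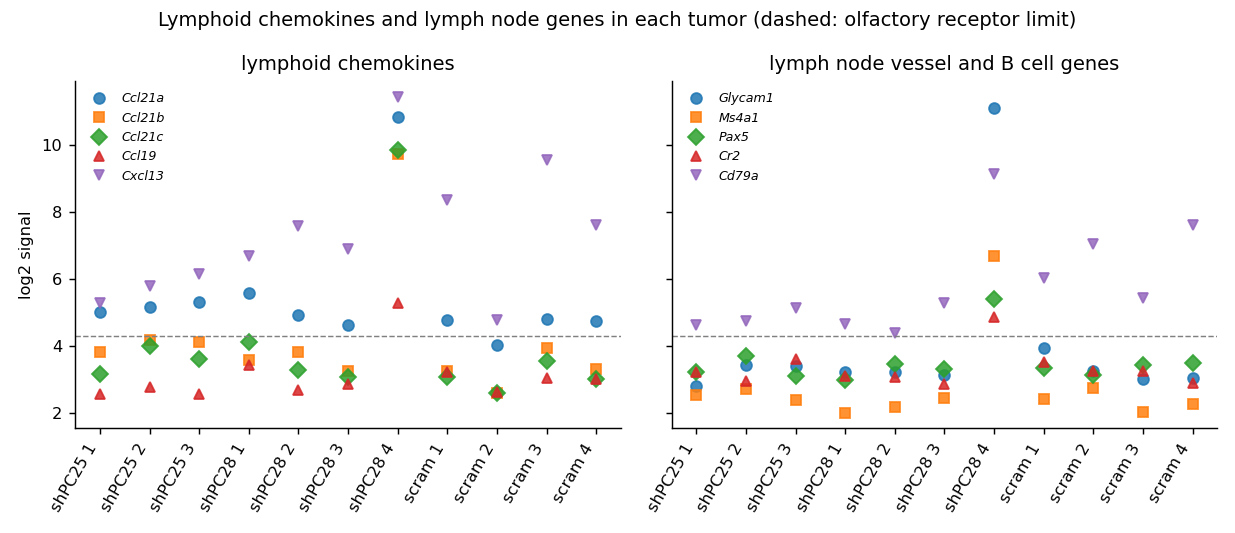
Log2 signal (vertical axis) of the lymphoid chemokines, left, and of lymph node vessel and B cell genes, right, in each of the 11 tumors (horizontal axis). The dashed line is the 95th percentile of olfactory receptor means. Ccl21a at 10.85 and Glycam1 at 11.13 in shPC28 replicate 4 stand above the other tumors, while Cxcl13 and Cd79a vary among scram tumors too.

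Among the remaining 16 chemokines, Cxcl16 and Cxcl14 held the smallest adjusted p-values of the family. Cxcl16, a membrane-bound chemokine of macrophages and dendritic cells and the ligand of Cxcr6, was at 12.07, 12.21 and 12.21 in shPC25 tumors, 12.40, 13.04, 12.36 and 12.77 in shPC28 tumors, and 12.77, 13.64, 13.51 and 13.30 in scram tumors. All shPC25 tumors lay below the other groups, and only shPC28 replicates 2 and 4 reached scram replicate 1. The difference was -0.90 (-1.32 to -0.49; limma, adjusted p = 0.163), a signal 1.87 times lower, with -1.14 for shPC25 and -0.66 for shPC28. Its receptor Cxcr6 differed by 0.13 (limma, adjusted p = 0.941).

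Cxcl14, expressed by epithelia and fibroblasts, was at 5.80, 5.31 and 5.68 in shPC25 tumors, 6.38, 5.71, 6.37 and 5.66 in shPC28 tumors, and 7.91, 6.27, 7.33 and 6.97 in scram tumors. Scram replicate 2 was the only scram tumor within reach of the shPC tumors, and the difference was -1.31 (-1.92 to -0.69; limma, adjusted p = 0.173). Ccl11, the eosinophil attractant eotaxin made by fibroblasts, was at 7.03, 7.23 and 7.29 in shPC25 tumors, 7.59, 7.73, 7.39 and 8.34 in shPC28 tumors, and 9.79, 9.73, 8.50 and 7.59 in scram tumors. Again scram replicate 4 lay with the shPC tumors and the other scram tumors lay above them all. The difference was -1.43 (-2.26 to -0.60; limma, adjusted p = 0.255), and -1.87 without scram replicate 4 (adjusted p = 0.0673). The eotaxin receptor Ccr3 differed by -0.03.

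Cxcl12, the stromal ligand of Cxcr4, was at 7.31, 6.47 and 6.36 in shPC25 tumors, 7.90, 5.80, 6.62 and 8.14 in shPC28 tumors, and 11.16, 8.79, 8.19 and 5.94 in scram tumors. The scram tumors spread over 5 log2 units and enclosed nearly all shPC tumors, and the difference of -1.61 (-3.36 to 0.14; limma, adjusted p = 0.595) was -2.47 when scram replicate 4 was left out and -0.73 when scram replicate 1 was. Ackr3, the scavenging receptor of Cxcl12, differed by -0.49 (limma, adjusted p = 0.546) and Cxcr4 by -0.16. Fibroblast markers were lower in 9 of 9 measured genes, 7 of them at an unadjusted p below 0.05, against 4.76% of all probe sets. Among the 9, Pdgfrb differed by only -0.02, with 0.44 for shPC25 and -0.48 for shPC28, and Fap was below background. Their mean per tumor was 8.30 to 9.73 in shPC25 tumors, 7.90 to 9.80 in shPC28 tumors and 9.62 to 11.62 in scram tumors, and scram replicate 1 (11.62) and scram replicate 4 (9.62), the scram tumors highest and lowest in Cxcl12, also held the ends of that range. The matrix genes Dcn and Lum differed by -3.21 and -3.19. From scram replicate 1 to scram replicate 4, Cxcl12 and Ccl11 fell in the order of the marker mean. Cxcl14 did not, and was lowest of the scram tumors (6.27) in replicate 2, where the marker mean was 11.54. The part of fibroblast content in Cxcl12, Cxcl14 and Ccl11 was not tested.

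**Figure D5:**
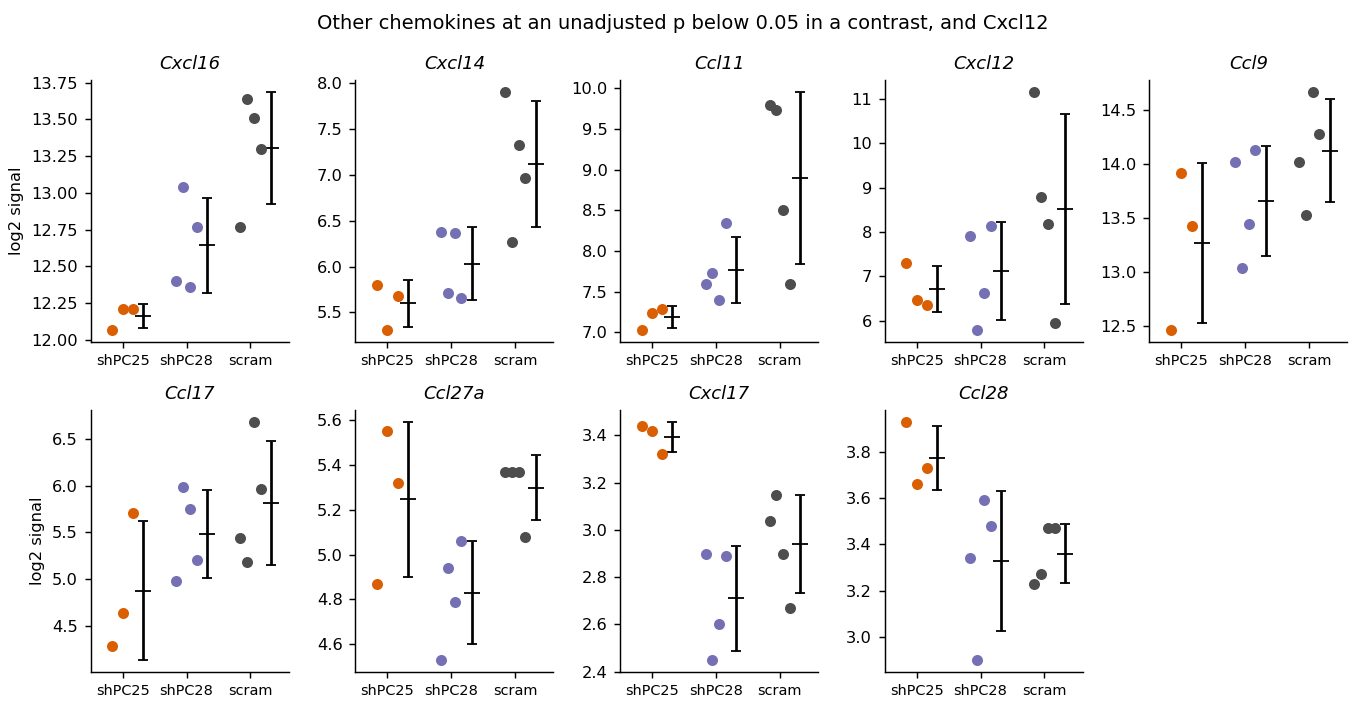
Log2 signal (vertical axis, with its own range in each panel) of Cxcl12 and of the chemokines outside the neutrophil and monocyte classes with an unadjusted p below 0.05 in at least 1 comparison, in each tumor by group. Points are tumors and the bar beside them is the mean with its SD. Cxcl16 lies at 12.07 to 12.21 in shPC25 tumors and at 12.77 to 13.64 in scram tumors, and Cxcl17 and Ccl28 are below background in every tumor.

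Some chemokines reached an unadjusted p below 0.05 with 1 hairpin only. With shPC25 these were Ccl8, Cxcl2, Ccl9 and Ccl17, which were lower, and Cxcl17 and Ccl28, which were higher but below background. With shPC28 it was Ccl27a, which was lower. Cxcl3 reached that limit with neither hairpin alone, at -1.25 for shPC25 and -1.40 for shPC28. For Cxcl2 the differences were -1.83 and -1.42 in the same order. Ccl17, a Ccr4 ligand of dendritic cells, was at 4.29, 4.64 and 5.71 in shPC25 tumors, 4.98, 5.99, 5.75 and 5.21 in shPC28 tumors, and 5.44, 5.18, 6.68 and 5.96 in scram tumors, a difference of -0.94 for shPC25 and -0.33 for shPC28. Ccl27a, a skin chemokine, was at 4.87, 5.55 and 5.32 in shPC25 tumors, 4.53, 4.94, 4.79 and 5.06 in shPC28 tumors, and 5.37, 5.37, 5.37 and 5.08 in scram tumors, a difference of -0.05 for shPC25 and -0.47 for shPC28. All 4 shPC28 tumors lay below all scram tumors for Ccl27a, by a narrow margin.

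The 2 hairpins were compared directly as well, and in shPC28 minus shPC25 1 chemokine was higher at an unadjusted p below 0.05 (2.63%, against 2.14% of all probe sets) and 2 were lower (5.26%, against 2.46%). The higher one was Ccl8, given above. Cxcl17, a mucosal chemokine, was at 2.90, 2.45, 2.6 and 2.89 in shPC28 tumors, 3.44, 3.42 and 3.32 in shPC25 tumors, and 3.04, 3.15, 2.90 and 2.67 in scram tumors. Ccl28, a mucosal Ccr10 ligand, was at 3.34, 2.90, 3.59 and 3.48 in shPC28 tumors, 3.93, 3.66 and 3.73 in shPC25 tumors, and 3.23, 3.27, 3.47 and 3.47 in scram tumors. Both genes lay under the background limit in every tumor, so their differences of -0.68 and -0.45 between hairpins are not readings of expression. Over the family 27 of 38 chemokines were higher in shPC28 than in shPC25 tumors, with a median difference of 0.38, and -0.000833 over all probe sets. Lower in shPC28 were 28.9% of the chemokines and 50.2% of all probe sets. The mean of the 38 per tumor was 7.09 to 7.67 in shPC25 tumors. It was 8.61 in shPC28 replicate 4, the tumor high in lymph node genes, and 7.52, 7.39 and 7.37 in the other shPC28 tumors. Only that tumor lay above the shPC25 range, and its part in the count was not tested.

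The other chemokines differed little. Ccl22, made by dendritic cells for Ccr4-bearing T cells, averaged 7.16 ± 0.71 in shPC25 tumors (SD, n = 3), 8.05 ± 1.19 in shPC28 tumors (SD, n = 4) and 7.45 ± 0.38 in scram tumors (SD, n = 4), a difference of 0.16 for both shPC groups. Ccl25, known from thymus and gut, averaged 8.17 ± 0.23, 8.50 ± 0.14 and 8.20 ± 0.24 in shPC25, shPC28 and scram tumors (SD), a difference of 0.13. Cx3cl1, a membrane-bound chemokine of endothelium and epithelium, averaged 4.95 ± 0.70, 4.76 ± 0.50 and 5.20 ± 1.78 in the same order, a difference of -0.34, and Xcl1, which calls cross-presenting dendritic cells, 4.98 ± 0.27, 4.63 ± 0.61 and 4.59 ± 0.52, a difference of 0.22. Ccl1 (mean over all tumors 3.85), Ccl20 (4.155), Ccl24 (4.163) and Ccl26 (3.977) were below background and differed by -0.30, 0.11, -0.06 and 0.37.

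The signs of neighboring genes were set side by side for 7 runs of the family. By the RefSeq gene order (GRCm38.p6), Ccl2, Ccl7, Ccl11, Ccl12, Ccl8 and Ccl1 follow each other on chromosome 11, and 6 of 6 were lower in the shPC groups. On the same chromosome Ccl5, Ccl9, Ccl6, Ccl3 and Ccl4 form a second run, with 4 of 5 lower. The chromosome 5 run of Cxcl5, Cxcl3, Cxcl15, Cxcl1 and Cxcl2, with Ppbp and Pf4 between its members, also had 4 of 5 lower, while Cxcl10 and Cxcl11, neighbors elsewhere on chromosome 5, were both higher, by 0.04 and 0.42. Cxcl10 kept that direction in 12 of 18 alternative runs of the fit. Cxcl9 is in no run, but its promoter window began at 92328030 on chromosome 5, close to that of Cxcl10 at 92348840. Cxcl9 was lower, with a difference of -0.25. Ccl19 and Ccl21a on chromosome 4 had 0 of 2 lower, Ccl26 and Ccl24 on chromosome 5 had 1 of 2 lower, and Ccl22, Cx3cl1 and Ccl17 on chromosome 8 had 2 of 3 lower. The signs are a description with no test.

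On the receiving side, 17 receptors were measured, of which 9 were lower and 8 higher, with a median difference of -0.03. At an unadjusted p below 0.05 Cxcr2 and Ccr1 were lower, beside 4.76% of all probe sets. Cxcr5, the Cxcl13 receptor, was higher at that limit by 0.67, beside 4.34% of all probe sets, although its mean was below background. Of the 4 atypical receptors, which take up chemokines without signaling for migration, Ackr1, which was below background, differed by -0.77 and Ackr3 by -0.49. Both were lower at an unadjusted p below 0.05, beside 4.76% of all probe sets. A list of inducing cytokines and genes of their pathways, feedback genes included, had 13 measured members, 11 of them above background. Of the 13, 12 were lower and 3 were lower at an unadjusted p below 0.05, against 4.76% of all probe sets. These 3 were Csf3, Il1b (-0.999; limma, adjusted p = 0.377) and Tnfaip3, an NF-kB feedback gene (-0.48; adjusted p = 0.451). Il1b, an inducer of Cxcr2 ligands, was at 10.99, 12.72 and 12.67 in shPC25 tumors, 12.29, 12.53, 11.97 and 13.11 in shPC28 tumors, and 13.49, 12.87, 13.53 and 13.31 in scram tumors. Only shPC28 replicate 4 lay above a scram tumor.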

How the data were processed

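RNA of whole tumors was labelled with the WT PLUS kit and read on Clariom S mouse arrays, which the authors analysed with Transcriptome Analysis Console. Values were deposited as log2 signals of 22206 probe sets, normalized between arrays by the authors. The summarizing algorithm is not given in the sources used here, and scanner files were not used here. Values ran from 1.43 to 18.7 and array medians from 5.89 to 6.08. The number of arrays limits the precision, no label gives a batch, and no 2 arrays were identical.

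Symbols came from the platform annotation. Unfiltered values were fitted in limma 3.58.1 under R 4.3.3 (lmFit, eBayes), with 1 mean per group over all 11 tumors, 4 contrasts, two-sided tests and Benjamini-Hochberg adjustment over all probe sets at 0.05. The fit was checked on simulated data. Every chemokine is named, with values in each tumor for class members above background and for others at an unadjusted p below 0.05 in a contrast. From companion lists, receptors and up to 4 genes of smallest p were named. Cxcl12, Csf3 tumor values, Ly6c2, Krt8 and lymph node and B cell genes were added after their values were seen. Members, classes and companion lists were chosen with earlier results of these data known. Results were recomputed after quantile normalization, with arrays centred on their medians, without dim probe sets, with array weights, with a trended and robust prior, with the replicate number as a block, after averaging all probe sets of a gene, on the compared groups alone, by the methods' t-test, and with each tumor left out in turn.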

Additional observations from a re-analysis of the deposited data

Results flagged for a closer look

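In each group of 4 tumors the highest and the lowest value of every chemokine was set against the other 3 by Dixon's gap test, and 9 of 76 gene and group pairs stood apart, where chance gives about 1 in 20. In shPC28 replicate 4 these were Ccl21a at 10.85 (others 4.61 to 5.59), Ccl21b at 9.75 (3.25 to 3.80), Ccl21c at 9.87 (3.07 to 4.1) and Ccl2 at 15.43 (14.03 to 14.26). In the other shPC28 tumors they were Cx3cl1 at 4.01 in replicate 1 (4.91 to 5.08) and Cxcl9 at 12.68 in replicate 3 (13.46 to 13.55). In scram tumors they were Ccl21a at 4.02 in replicate 2 (4.74 to 4.81), Ccl20 at 5.20 in replicate 3 (3.63 to 3.84) and Ccl27a at 5.08 in replicate 4 (5.37 in each of the others). The Ccl21 values count as 1 event because the genes share nearly all sequence, and Ccl20 was below background as a mean.

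Cxcl17 differed between the hairpins in opposite directions from scram, with shPC28 minus shPC25 at -0.68 (limma, adjusted p = 0.993 over all probe sets). Its signal was below background in every tumor.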

How the results depend on the processing

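No chemokine passed the adjusted threshold under any alternative run. The smallest adjusted p-values by limma were 0.057 for Cxcl16 with a trended and robust prior and 0.0673 for Ccl11 without scram replicate 4. Same-numbered tumors did not deviate together (correlations -0.18 to 0.143 over 10 pairs, 2 of them over 0.1), and with the replicate number as a block 0 chemokines passed in every comparison, with medians of -1.38 for neutrophil attractants, 0.06 for interferon-induced, -0.58 for monocyte attractants and 1.62 for lymphoid chemokines. Leaving out 1 tumor gave medians of -1.85 to -0.90 for neutrophil attractants, -0.84 to -0.47 for monocyte attractants, -0.25 to 0.44 for interferon-induced and 0.48 to 1.56 for lymphoid chemokines, the lowest of the last without shPC28 replicate 4, and the lymphoid median was 0.30 with dim probe sets left out. With Ccl21 counted once, added after seeing the data, it was 0.14, and -0.15 also without shPC28 replicate 4.

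Counts of lower chemokines without 1 tumor, chosen after seeing the data, were 20 to 27 for both shPC groups, 23 to 27 for shPC25 and 23 to 29 for shPC28. At an unadjusted p below 0.05 they were 5 to 10 for both groups, 5 to 10 for shPC25 (5 without scram replicate 3, shPC25 replicate 1 or shPC28 replicate 3) and 3 to 9 for shPC28 (3 without scram replicate 1, 9 without scram replicate 4 or shPC28 replicate 4).

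Some directions turned, in genes with differences between -0.64 and 0.42. Median centring gave 0.032 for Ccl24, and array weights gave -0.013 for Ccl4, 0.026 for Cx3cl1 and -0.048 for Cxcl10. Leaving out 1 tumor moved Ccl4 between -0.16 and 0.43, Ccl5 between -0.58 and 0.30, Ccl19 between -0.15 and 0.28, Ccl20 between -0.041 and 0.48, Ccl22 between -0.0033 and 0.45, Ccl24 between -0.16 and 0.09, Cx3cl1 between -1.05 and 0.19, Cxcl9 between -0.42 and 0.075, Cxcl10 between -0.25 and 0.44, Cxcl11 between -0.057 and 1.05, Cxcl13 between -1.57 and 0.028 and Cxcl15 between -0.013 and 0.54. The cause was not tested. Signals near background, as in Cxcl5 of the shPC tumors, understate a ratio.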
